A study of Mus musculus with 4 samples.

Results

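The immediate early genes of the AP-1 and EGR transcription factor families were followed in RNA sequencing libraries of CD8+ T cells enriched from percutaneous tumour grafts. The members were fixed by name: the FOS genes Fos and Fosb, the JUN genes Jun, Junb and Jund, the EGR genes Egr1, Egr2 and Egr3, and the related early genes Ier2 and Atf3. All 10 were found, among 36464 genes in the deposited tables. Of these 10, 9 passed the filter of at least 1 RPKM (reads per kilobase of exon, scaled to the reads counted in the library) in at least 2 libraries, which 12484 genes passed in all, and Egr2 did not. The grafts grew in wild type male C57BL/6 mice, 6 per treatment, which received intraperitoneal IgG or anti-SIGLEC15 over 2 weeks, with collection on day 19. The age of the mice and the grafted tumour line are not given in the labels. The pellets were mixed 3 at a time before sequencing, which leaves 2 libraries per treatment, so errors and p-values measure how pools of 3 pellets vary and not how mice vary. The study's title asks how CD8+ T cells change in the tumour when SIGLEC15 is blocked.

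AP-1 is a dimer of basic leucine zipper proteins, in which FOS proteins pair with JUN proteins and bind TGACTCA sites. EGR proteins are zinc finger factors that bind GC-rich sites. Both families are transcribed within minutes of a stimulus, without new protein synthesis, when MAP kinases activate serum response factor, ternary complex factors and CREB at their promoters. In T cells the T cell receptor is such a stimulus, and AP-1 cooperates with NFAT at cytokine genes, while EGR2 and EGR3 restrain activation. Growth factors and stress, including tissue dissociation, switch on the same genes in most other cell types.

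The 150 bases before the RefSeq start site (GRCm38.p6) are printed for 3 of the 4 members that varied most between the IgG libraries on the log2(RPKM + 1) scale, and for Egr2, the member with the fewest reads. Capitals mark the motif letters searched, and each sequence reads 5′ to 3′ on the strand of the gene.
Fos (chr12:85473740-85473889, plus strand): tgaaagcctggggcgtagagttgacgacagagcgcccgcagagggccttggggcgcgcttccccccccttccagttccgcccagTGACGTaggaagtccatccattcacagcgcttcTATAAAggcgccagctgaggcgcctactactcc
Fosb (chr7:19310046-19310195, minus strand): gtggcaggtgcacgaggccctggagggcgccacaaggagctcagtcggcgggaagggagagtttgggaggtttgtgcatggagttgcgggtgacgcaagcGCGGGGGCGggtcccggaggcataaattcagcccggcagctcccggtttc
Atf3 (chr1:191183334-191183483, minus strand): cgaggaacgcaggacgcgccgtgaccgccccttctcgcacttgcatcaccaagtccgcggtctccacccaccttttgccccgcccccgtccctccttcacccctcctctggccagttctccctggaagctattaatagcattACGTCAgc
Egr2 (chr10:67537416-67537565, plus strand): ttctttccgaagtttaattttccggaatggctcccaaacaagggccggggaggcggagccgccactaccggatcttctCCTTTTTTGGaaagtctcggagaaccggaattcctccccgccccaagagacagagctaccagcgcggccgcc
The core of the cyclic AMP response element, TGACGT on either strand, was found in Fos (from 66 bases before the start), in Atf3 (from 8 bases before the start) and in a window of Egr2 that is not printed. It stood in 5.15% of all 32851 promoter windows of this length. The TATA box TATAAA, searched on the strand of the gene, was found in Fos, from 33 bases before the start, and in 4.84% of all windows. The EGR site GCGNGGGCG, on either strand, was found in Fosb and in 3.81% of all windows. The CArG box, the binding site of serum response factor, was found in Egr2 and in 0.916% of all windows. The AP-1 site TGACTCA, on either strand, was in none of the 7 members that have a window in the table and in 2.84% of all windows. The 5 motifs do not overlap in the printed windows. The Fos window lies outside annotated exons in GENCODE M21, and the last few bases of the Fosb and Atf3 windows reach into a first exon. The Atf3 window lies within the span of the gene, downstream of its annotated 5′ end. The printed Egr2 window also lies within the span of its gene, but in no exon. Egr2 has 5 windows in the table, and the one printed is the first listed that holds a CArG box. A match gives these letters only, and no match says nothing about a factor.

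Recovery of whole reads from the RPKM values gave between 14854802 and 16026197 counted reads per library. The CD8 genes Cd8a and Cd8b1 were present in every library, with Cd8a at 115 RPKM in IgG replicate 1 and between 290 and 351 RPKM in the other 3. The target transcript Siglec15 had 0 reads in all 4 libraries, which allows up to 0.162 to 0.175 RPKM by the limit of 3 reads (counting error only). The 2 IgG libraries correlated at 0.884 across tested genes on the log2(RPKM + 1) scale, and the 2 anti-SIGLEC15 libraries at 0.972. These correlations do not tell which IgG library departs. Treatment differences of the members are therefore given below with all 4 libraries and with each library left out.

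Fos and Fosb, the partners of JUN proteins in AP-1, were most abundant in IgG replicate 1 and least abundant in IgG replicate 2. Fos (ENSMUSG00000021250, chromosome 12, 85473890 to 85477273) measured 825 and 156 RPKM in IgG replicates 1 and 2, and 384 and 158 RPKM in anti-SIGLEC15 replicates 1 and 2. The IgG libraries thus enclosed both anti-SIGLEC15 libraries, and anti-SIGLEC15 replicate 2 lay next to IgG replicate 2. The gap between the IgG libraries was 5.30-fold and that between the anti-SIGLEC15 libraries 2.44-fold. Fosb (ENSMUSG00000003545, chromosome 7, 19302696 to 19310051) measured 221 and 60.5 RPKM with IgG, against 123 and 94.8 RPKM with anti-SIGLEC15. Its IgG libraries differed 3.66-fold and its anti-SIGLEC15 libraries 1.29-fold. The group means of Fos were 490 ± 473 RPKM with IgG, against 271 ± 160 RPKM after anti-SIGLEC15 (SD, 2 libraries each). Those of Fosb were 141 ± 114 and 109 ± 19.8 RPKM. These values rest on between 5510 and 31106 reads per library for Fos and between 5859 and 22146 for Fosb, so counting error is small beside the gap between pools.

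Junb was the most abundant member in every library and Jund varied least between the libraries among the 9 tested members. Junb (ENSMUSG00000052837, chromosome 8, 84974484 to 84978718), which encodes a JUN protein that can replace or restrain c-Jun, measured 1213 and 652 RPKM with IgG, against 848 and 679 RPKM with anti-SIGLEC15. It ranked 50th of all genes in IgG replicate 1 and 99th in IgG replicate 2. Jun (ENSMUSG00000052684, chromosome 4, 95049034 to 95052222), which encodes c-Jun, the founding partner of FOS, measured 350 and 128 RPKM with IgG, against 240 and 188 RPKM with anti-SIGLEC15. Jund (ENSMUSG00000071076, chromosome 8, 70698949 to 70700616), the family member known for constant rather than induced expression, measured 34.3 and 28.7 RPKM with IgG, against 31.1 and 29.6 RPKM with anti-SIGLEC15. The IgG libraries differed 2.74-fold for Jun, 1.86-fold for Junb and 1.19-fold for Jund. Each of the 3 genes again had both anti-SIGLEC15 libraries between the IgG libraries. In the annotation 232 exon bases of Jun are shared with the antisense gene Junos, 173 of Junb with the gene Prdx2 on the other strand, and 877 of Jund with the antisense gene Gm11175. Whether counting used strand is not given in the sources used here, so reads in these stretches cannot be told apart. Junos measured at most 0.371 RPKM and Prdx2 at most 48.9 RPKM. No value was available for Gm11175, which shares the longest stretch, so its part in the Jund level is not bounded.

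**Figure D1:**
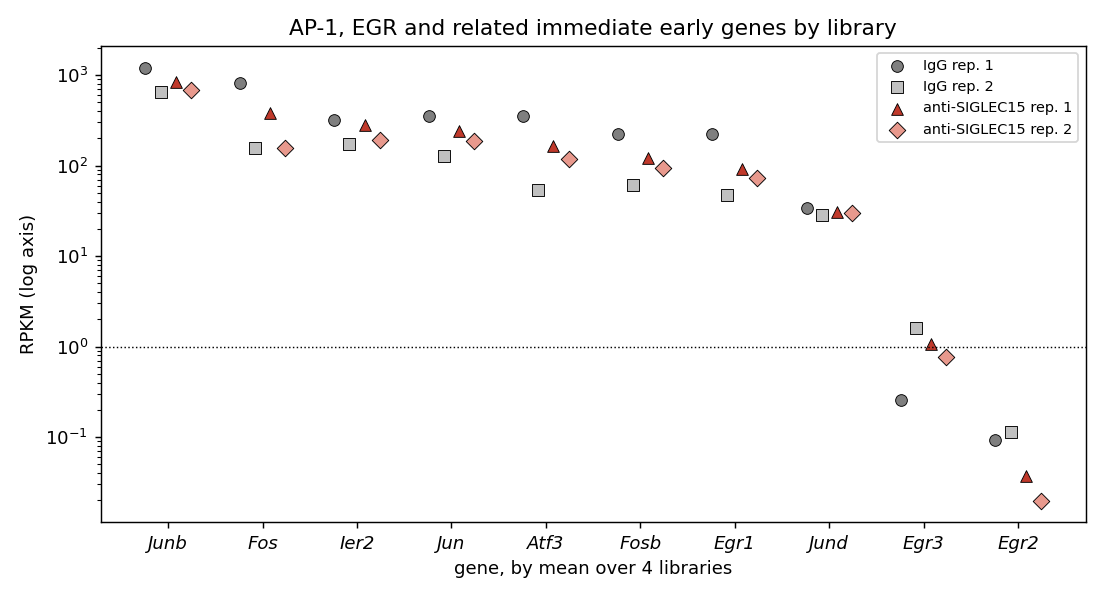
RPKM on a log axis for the 10 genes, ordered by their mean over the 4 libraries, with 1 point per library and a dotted line at 1 RPKM. For 8 genes IgG replicate 1 is the top point and IgG replicate 2 the bottom point, while Egr3 has IgG replicate 1 at the bottom and Egr2 stays under 0.12 RPKM.

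The makeup of the FOS and JUN transcripts moved with their level. In RPKM, which corrects for length, Junb made up 45.9% of the summed FOS and JUN level in IgG replicate 1 and 63.6% in IgG replicate 2, and 52.2% and 59.1% in the anti-SIGLEC15 libraries. The share of Fos was 31.2% and 15.18% with IgG and 23.6% and 13.7% with anti-SIGLEC15. The sum of Fos and Fosb per sum of the 3 JUN genes was 0.655 and 0.267 with IgG, and 0.453 and 0.282 with anti-SIGLEC15. For the shares of Junb and Fos and for this ratio, the ranges of the treatments overlapped. The share of Jun was 13.3% and 12.5% with IgG, against 14.8% and 16.3% with anti-SIGLEC15, so here both anti-SIGLEC15 libraries lay above both IgG libraries. That difference was not tested. Ratios within a library do not depend on its scaling.

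**Figure D2:**
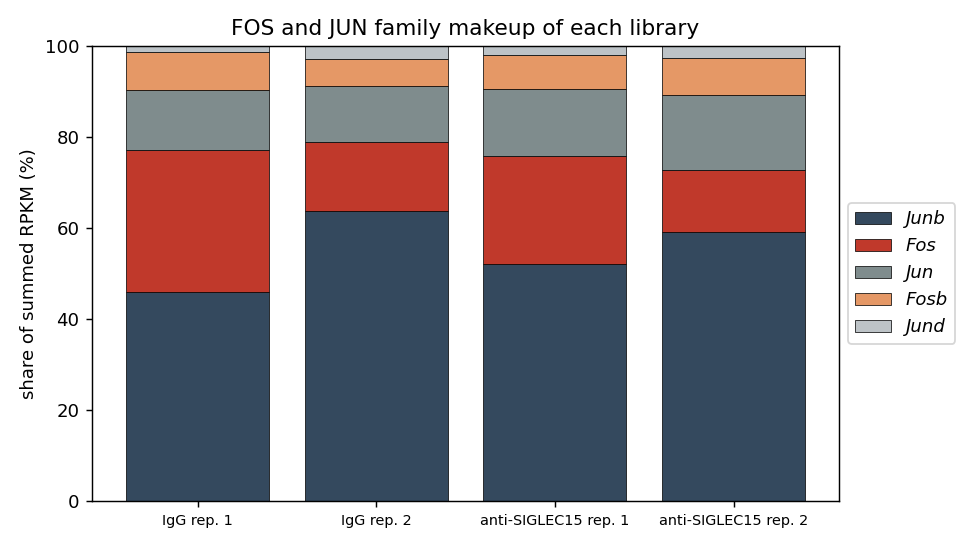
Stacked bars give the share of each gene in the summed RPKM of Fos, Fosb, Jun, Junb and Jund, in percent, 1 bar per library. Fos takes 31.2% in IgG replicate 1 and 13.7% to 23.6% in the other 3 libraries, and Junb takes the largest share in each.

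The EGR genes did not behave alike. Egr1 (ENSMUSG00000038418, chromosome 18, 34859823 to 34864984), the EGR gene that most cell types induce, measured 221 and 47.1 RPKM with IgG, against 90.8 and 72.3 RPKM with anti-SIGLEC15. Its IgG libraries differed 4.70-fold and enclosed the anti-SIGLEC15 libraries, as for Fos. Egr3 (ENSMUSG00000033730, chromosome 14, 70077203 to 70082614), which the T cell receptor induces through NFAT, was near the filter and had the opposite order of the IgG libraries. It measured 0.255 and 1.61 RPKM with IgG, against 1.06 and 0.764 RPKM with anti-SIGLEC15, from 18, 110, 73 and 50 reads. The exact Poisson 95% interval of IgG replicate 1, from 0.151 to 0.403 RPKM, did not reach those of the other 3 libraries, whose lowest bound was 0.567 RPKM. These intervals cover counting error only. Egr2 (ENSMUSG00000037868, chromosome 10, 67535475 to 67542188) had 5 and 6 reads with IgG and 2 and 1 reads with anti-SIGLEC15, or 0.0918, 0.114, 0.0375 and 0.0198 RPKM. Both anti-SIGLEC15 values lay below both IgG values. All 4 exact Poisson 95% intervals hold the range from 0.0418 to 0.11 RPKM. Overlap of intervals of single libraries does not compare the treatments, and Egr2 was not in the main test. These few reads leave a difference in Egr2 undecided. Egr1 exceeded Egr3 867-fold and 29.2-fold in the IgG libraries, against 86.0-fold and 94.6-fold with anti-SIGLEC15.

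Atf3 and Ier2 followed Fos and Egr1 in the order of the libraries. Atf3 (ENSMUSG00000026628, chromosome 1, 191170296 to 191218039), a stress-induced bZIP factor that often represses its targets, measured 357 and 54.1 RPKM with IgG, against 164 and 119 RPKM with anti-SIGLEC15. Its 6.60-fold gap between IgG libraries was the widest of the 9 tested members, against 1.38-fold between the anti-SIGLEC15 libraries. Ier2 (ENSMUSG00000053560, chromosome 8, 84661331 to 84662852), a short nuclear protein induced by growth factors, measured 316 and 171 RPKM with IgG, against 282 and 192 RPKM with anti-SIGLEC15. By mean over the libraries the order of levels was Junb (848 RPKM), Fos (381), Ier2 (240), Jun (227), Atf3 (174), Fosb (125), Egr1 (108), Jund (30.9), Egr3 (0.921) and Egr2 (0.0657). The ranges over libraries overlapped for each neighbouring pair from Junb to Egr1, and did not overlap between Egr1 and Jund or between Jund and Egr3. Together the 10 genes took 0.953% of counted reads in IgG replicate 1, 0.330% in IgG replicate 2, and 0.563% and 0.405% in the anti-SIGLEC15 libraries.

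A trait that the choice by name did not use is their compact structure. The transcript with the longest coding sequence has 1 exon in 4 of the 10 members, Jun, Junb, Jund and Ier2. Among the 10254 tested protein-coding genes this holds for 2.62%, and their median is 9 exons, against 2 in the members.

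No member passed the test between the treatments. In limma on log2(RPKM + 1), 0 of the 9 tested members passed a Benjamini-Hochberg adjusted p of 0.05, as did 0 of all 12484 tested genes (0%), with 146 genes (1.17%) at an unadjusted p under 0.05. With limma-voom on the recovered reads, 0 of 15056 genes passed and 93 (0.618%) had an unadjusted p under 0.05. The log2 fold change, anti-SIGLEC15 over IgG, was -0.54 (SE 0.89) for Fos, -0.10 (SE 0.64) for Fosb, -0.33 (SE 0.75) for Egr1 and -0.23 (SE 0.36) for Junb. It lay within 0.08 of 0 for Jun, Jund, Egr3, Ier2 and Atf3, with SEs from 0.26 for Jund to 0.90 for Atf3. For Egr3, which lies near the pseudocount of 1, it was 0.36 (SE 1.03) with a pseudocount of 0.1 and 0.43 (SE 0.94) in limma-voom. The adjusted p of each was 1 in limma. The median over the 9 tested members was -0.05, beside 0.02 over all tested genes. With 2 libraries against 2, the smallest two-sided exact permutation p is 0.333.

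On the log2(RPKM + 1) scale, each of the 9 tested members differed more between the IgG libraries than between the treatment means. None of the 9 tested members had both anti-SIGLEC15 libraries above both IgG libraries, as 12.1% of tested genes did, or below them, as 6.02% did. All 9 had both anti-SIGLEC15 libraries between the IgG libraries, as 27.4% of tested genes did. The order IgG replicate 1, anti-SIGLEC15 replicate 1, anti-SIGLEC15 replicate 2, IgG replicate 2, from highest to lowest, was shared by 8 of the 9, all but Egr3, and by 9.22% of tested genes. The exact reverse, which 5.91% of tested genes had, was seen in 0 of the 9. These orders were singled out after the values were seen. On the log2(RPKM + 1) scale, 5 of the 9 members were at least 2-fold higher in IgG replicate 1 than in IgG replicate 2, as were 12.5% of tested genes. The median log2 gap of IgG replicate 1 over IgG replicate 2 was 1.45 in the members and -0.08 over all tested genes. IgG replicate 1 stayed the highest library for these 8 members under the 4 other scalings tried. Jund left the order under median-of-ratios, upper-quartile and non-mitochondrial scaling, and under median-of-ratios its anti-SIGLEC15 libraries no longer both lay between the IgG libraries.

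The sign of a treatment difference therefore depended on which IgG library was kept. Without IgG replicate 1, 8 of the 9 members lay higher with anti-SIGLEC15, with a median log2 fold change of 0.66 (0.01 over all tested genes). In that fit 1 member passed, Atf3, with a log2 fold change of 1.35 (SE 0.26, limma adjusted p = 8.97e-05), as did 0.681% of tested genes as higher and 0.32% as lower. Without IgG replicate 2, 8 of the 9 lay lower, with a median of -0.72, and 6 passed as lower: Fos, Fosb, Jun, Junb, Egr1 and Atf3. In that fit 9.36% of tested genes passed as lower and 7.7% as higher. The values of Atf3 and Egr1 there were -1.35 (limma adjusted p = 6.65e-06) and -1.44 (limma adjusted p = 8.63e-06). Atf3 thus passed in opposite directions in these fits, in each of which the lone IgG library is assumed to vary like the anti-SIGLEC15 pair. Without anti-SIGLEC15 replicate 1 the median log2 fold change of the members was -0.28, beside -0.08 over all tested genes. Without anti-SIGLEC15 replicate 2 it was 0.10, beside 0.11 over all tested genes.

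**Figure D3:**
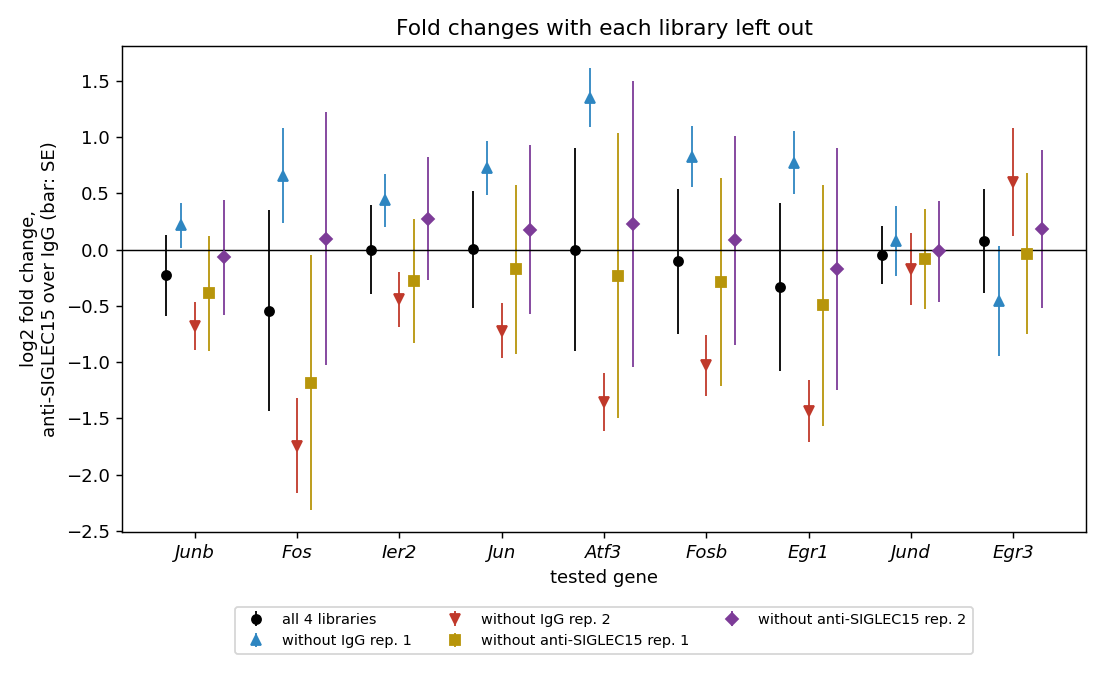
Log2 fold change of anti-SIGLEC15 over IgG, on the log2(RPKM + 1) scale, for the 9 tested genes with all 4 libraries and with each library left out, bars giving the SE. Without IgG replicate 1 all genes but Egr3 lie above 0, and without IgG replicate 2 all but Egr3 lie below 0.

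Most epithelial markers had the same order of libraries as the members, and hepatocyte markers had it in part. Of 8 tested epithelial markers, 7 shared the order of the 8 members, as did 4 of 13 tested hepatocyte and hepatoma markers (Alb, Afp, Hnf4a and Trf) and 9.22% of all tested genes. The epithelial marker that did not, Cdh1, was lowest in IgG replicate 1. It measured 0.368 and 1.54 RPKM with IgG, against 0.933 and 1.84 RPKM with anti-SIGLEC15. The keratin gene Krt18 measured 1402 and 267 RPKM with IgG, against 501 and 336 RPKM with anti-SIGLEC15. The summed level of the 9 epithelial markers was 2630 and 484 RPKM with IgG, against 940 and 644 RPKM with anti-SIGLEC15, and that of the 14 hepatocyte markers 6473 and 1319 RPKM and 2818 and 1328 RPKM. Alb, Trf and Afp carry most of the hepatocyte sum. The geometric mean of the tested hepatocyte markers was 115 and 32.8 RPKM with IgG, against 81.4 and 26.2 RPKM with anti-SIGLEC15, which puts anti-SIGLEC15 replicate 2 lowest. The 8 tested neutrophil markers were also all highest in IgG replicate 1, as 34% of all tested genes were. All 8 were lowest in IgG replicate 2, but higher in anti-SIGLEC15 replicate 2 than in replicate 1. The summed level of the 9 neutrophil markers was 1009 and 83.5 RPKM with IgG, against 256 and 473 RPKM with anti-SIGLEC15. All 22 tested T cell identity markers and all 8 CD8 lineage markers were instead lowest in IgG replicate 1, as 43.3% of tested genes were, and so was Egr3. The summed T cell identity level was 1483 and 5130 RPKM with IgG, against 4580 and 4642 RPKM with anti-SIGLEC15. No member of the epithelial, hepatocyte, neutrophil or T cell lists was at 0 in all libraries. Their part in the levels of the immediate early genes was not tested. In bulk libraries, fewer cells of a type and less RNA per cell cannot be told apart.

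Other markers were low or followed another order. Dcn and Pecam1, the only fibroblast and endothelial markers that passed the filter, reached at most 2.15 and 2.70 RPKM. Markers of B and plasma cells summed to 7.69 and 22.6 RPKM with IgG, against 31.8 and 29.2 RPKM with anti-SIGLEC15, mostly Ighm. The 11 macrophage and monocyte markers summed to 45.5 and 37.0 RPKM with IgG, against 41.1 and 50.8 RPKM with anti-SIGLEC15, led by Cd68. Summed levels of the 6 natural killer cell markers lay between 43.8 and 81.4 RPKM, with Ncr1 at most 0.372 RPKM. Most of this sum was Klrk1 and Tyrobp, the only 2 of the 6 that passed the filter. Dendritic cell markers summed to between 28.8 and 59.9 RPKM, mostly Ccr7, and CD4 and regulatory T cell markers to between 36.4 and 112 RPKM, mostly Ctla4. Red cell and platelet markers summed to 732 and 1936 RPKM with IgG, against 126 and 31.1 RPKM with anti-SIGLEC15. No tested member shared this order, and Egr2, which failed the filter, had it from at most 6 reads per library. The platelet genes Pf4 and Ppbp had the order of the 8 members instead. Mitochondrially encoded genes took 11.87% and 12.96% of reads with IgG and 8.91% and 18.37% with anti-SIGLEC15.

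**Figure D4:**
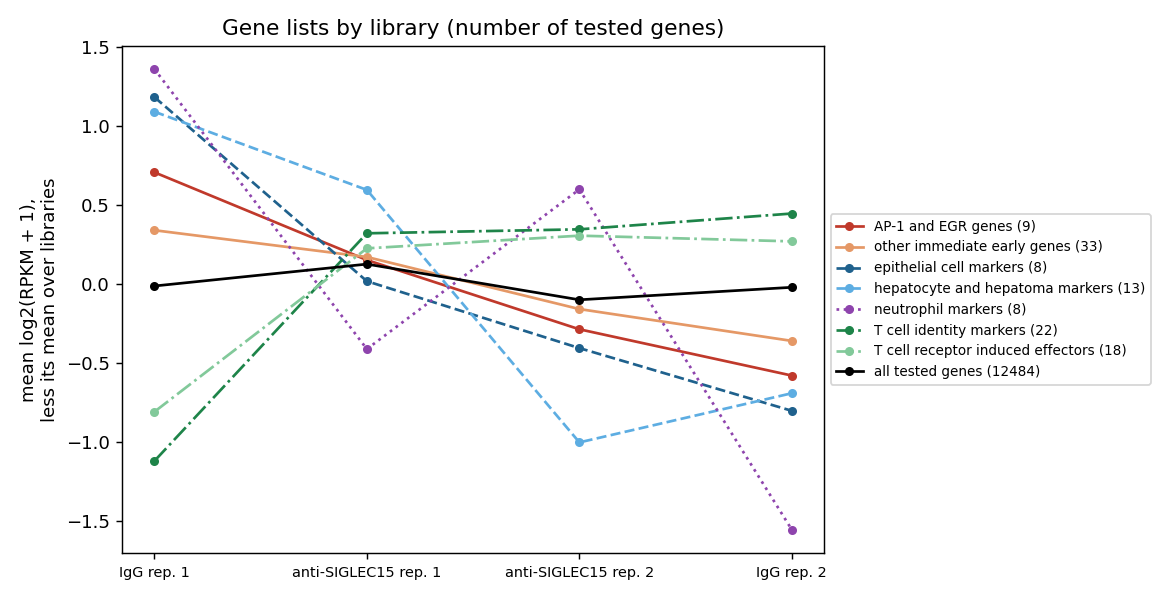
Mean log2(RPKM + 1) of each gene list, less its mean over the 4 libraries, with libraries placed from the highest to the lowest mean of the AP-1 and EGR genes and tested genes in parentheses. The AP-1 and EGR genes, other immediate early genes and epithelial markers step down from left to right, and the T cell lists are lowest in IgG replicate 1.

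Other immediate early genes shared the order of the 8 members in part. Of 33 tested, 16 had this order, which 9.22% of all tested genes had. Among the 16 were the zinc finger gene Klf4, the mRNA-decay factor gene Zfp36 and the IκBα gene Nfkbia. Klf4 measured 216 and 34.5 RPKM with IgG, against 97.1 and 68.4 RPKM with anti-SIGLEC15, and Zfp36 803 and 185 RPKM and 327 and 233 RPKM. A further 9 were lowest in IgG replicate 1, including the 3 NR4A genes, a share below the 43.3% of all tested genes. Nr4a2, an orphan nuclear receptor gene that the T cell receptor induces, measured 41.9 and 185 RPKM with IgG, against 118 and 144 RPKM with anti-SIGLEC15. In both anti-SIGLEC15 libraries 4 lay higher, the share seen over all tested genes (12.1%), and 0 lower, where 6.02% of all tested genes did. The 4 were Tnfaip3, which encodes the NF-κB inhibitor A20 (71.2 and 204 RPKM with IgG, against 215 and 208 RPKM with anti-SIGLEC15), Btg1, Per1 and Csrnp1. None passed in limma, and the median log2 fold change of the list was -0.01. Klf4, Zfp36, Nfkbia and Nr4a2 were chosen after their values were seen.

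Early effector genes of T cell receptor signalling were mostly lowest in IgG replicate 1, the library in which 8 of the 9 tested members were highest. Of 18 tested, 17 were lowest in IgG replicate 1, all but Tnf, as 43.3% of all tested genes were. The order of the 8 members, which 9.22% of all tested genes had, was seen in 0. In both anti-SIGLEC15 libraries 7 lay higher and 0 lower, where 12.1% and 6.02% of all tested genes did, and 0 passed in limma. Their median log2 fold change was 0.49, beside 0.70 for the T cell identity markers and 0.57 for the CD8 lineage markers, whose part in it was not tested. Cd69, the early activation receptor, measured 8.36 and 27.8 RPKM with IgG, against 46.4 and 33.0 RPKM with anti-SIGLEC15. The chemokine gene Ccl4 measured 178 and 482 RPKM and 794 and 519 RPKM, Xcl1 53.8 and 127 RPKM and 152 and 173 RPKM. Irf4, a factor whose level follows receptor strength and which binds DNA with the AP-1 factor BATF, measured 3.42 and 12.9 RPKM and 13.0 and 15.5 RPKM.

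Further AP-1 and bZIP family genes were mixed. Of 19 tested, 1 lay higher (Atf4) and 2 lower (Jdp2 and Atf2) in both anti-SIGLEC15 libraries, where 12.1% and 6.02% of all tested genes did. In this list 12 were highest in IgG replicate 1, as 34% of tested genes were. Atf4, the effector of the integrated stress response, measured 156 and 156 RPKM with IgG, against 223 and 178 RPKM with anti-SIGLEC15. Jdp2, which encodes a repressor that pairs with c-Jun, measured 15.6 and 21.7 RPKM with IgG, against 10.3 and 14.8 RPKM with anti-SIGLEC15. Batf, the AP-1 factor of effector and exhausted T cells, had the opposite order of IgG libraries from Fos, with 19.8 and 60.5 RPKM, and 52.2 and 60.3 RPKM with anti-SIGLEC15. Fosl1, a FOS gene without a transactivation domain, measured 7.61 and 0.824 RPKM with IgG, against 1.94 and 2.02 RPKM with anti-SIGLEC15. Fosl2, another FOS gene of the list, did not share the order of Fos. It measured 22.2 and 35.0 RPKM with IgG, against 20.7 and 33.5 RPKM with anti-SIGLEC15. Batf, Fosl1 and Fosl2 were picked after the values were known. The median log2 fold change of the list was -0.13 and 0 passed in limma.

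Among regulators upstream of these promoters, the order of libraries seen in the members was no more common than over all tested genes. In the list of serum response factor, ternary complex factors and CREB, 12 were tested, 1 lay higher in both anti-SIGLEC15 libraries (Mrtfa), where 12.1% of all tested genes did, and 0 passed in limma. In this list 0 shared the order of the members, as 9.22% of all tested genes did. Srf, which encodes the factor that binds CArG boxes, measured 29.2 and 26.5 RPKM with IgG, against 28.5 and 22.5 RPKM with anti-SIGLEC15. The CREB coactivator gene Crtc2 measured 15.6 and 21.2 RPKM and 20.4 and 17.0 RPKM. Of 20 tested genes of the MAP kinase cascade, 3 lay lower (Map2k7, Mapk8 and Mapk14) and 0 higher, with 0 passing, where 6.02% of all tested genes lay lower and 12.1% higher. Of these 20, 8 were highest in IgG replicate 1, where 34% of all tested genes were. In the same list 1 gene, Map2k6, shared the order of the members, where 9.22% of all tested genes did. Mapk14, which encodes the stress kinase p38α, measured 19.7 and 19.2 RPKM with IgG, against 17.7 and 15.6 RPKM with anti-SIGLEC15. The EGR corepressor genes Nab1 and Nab2 had opposite orders of the IgG libraries. Nab1 measured 22.3 and 37.4 RPKM with IgG, against 34.2 and 40.9 RPKM with anti-SIGLEC15, and Nab2 20.3 and 11.7 RPKM and 12.2 and 11.3 RPKM.

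Feedback inhibitors of MAP kinases were mixed. Of 13 tested, 7 were highest in IgG replicate 1, 4 were lowest there (34% and 43.3% of all tested genes) and 0 passed in limma, with a median log2 fold change of -0.42. In both anti-SIGLEC15 libraries 1 lay higher and 1 lower, where 12.1% and 6.02% of all tested genes did. Dusp2, a nuclear MAP kinase phosphatase of activated lymphocytes, lay higher in both anti-SIGLEC15 libraries, with 107 and 258 RPKM with IgG, against 282 and 298 RPKM with anti-SIGLEC15. Spred1, an inhibitor of Ras signalling, lay lower, with 7.45 and 5.06 RPKM and 4.75 and 3.999 RPKM. Dusp1, the stress-induced phosphatase, measured 590 and 139 RPKM with IgG, against 243 and 215 RPKM with anti-SIGLEC15. It was the only gene of this list with the order of the members, which 9.22% of all tested genes had. It was chosen after its values were seen.

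Heat shock genes did not all follow the members. Of 13 tested, 3 lay higher in both anti-SIGLEC15 libraries (Hspa1a, Hspa1b and Hspb1), 1 lower (Dnajb4) and 0 passed in limma. Over all tested genes 12.1% lay higher and 6.02% lower. The median log2 fold change was 0.12. Hspb1, which encodes the small chaperone HSP27, measured 3.93 and 4.38 RPKM with IgG, against 6.86 and 12.0 RPKM with anti-SIGLEC15. Hspa1b measured 60.7 and 72.9 RPKM with IgG, against 167 and 133 RPKM with anti-SIGLEC15. Hspa1a is a near-identical copy, and how reads of the pair were assigned is not given in the sources used here, so both values are uncertain. Of the 13, 3 shared the order of the 8 members (Dnajb1, Hspe1 and Bag3), which 9.22% of all tested genes had.

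The genes most like the members were sought by the root mean square distance between centred log2(RPKM + 1) values over the 4 libraries and the mean profile of the 9 tested members. The search covered 5975 protein-coding genes outside the members with a mean of at least 5 RPKM. The 6 nearest were Soat2 (0.0113), Sntb1 (0.0495), Gna11 (0.0511), Nudt2 (0.068), Ier5 (0.0698) and Mgst2 (0.0761). Soat2, a cholesterol esterification enzyme of liver and intestine, measured 10.996 and 3.93 RPKM with IgG, against 7.28 and 5.14 RPKM with anti-SIGLEC15. Ier5, another immediate early gene, measured 223 and 85.5 RPKM and 160 and 118 RPKM. Of the members, Jun was nearest to their mean profile (0.0923) and Egr3 farthest (0.838). The profile averages Egr3 with the other tested members, and all 6 genes lay nearer to it than any tested member did.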

How the data were processed

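Per the labels' protocols, RNA selected on oligo-coated beads was read on the DNBSEQ-G50 platform. The files the authors deposited give 1 value per gene and library. The unit is not named in them. It was taken to be RPKM, computed by the authors, since a value times the GENCODE M21 exon length was a whole multiple of 1 step per library for 98.92% to 98.97% of genes under 1000 reads (tolerance 0.02). The length of Ier2 that gave whole reads was 1524 bases. The submitters' processing notes name GRCm38 and mm10. For aligner, counter and annotation: not given in the sources used here. Symbols and coordinates came from GENCODE M21 for 36346 of 36464 IDs.

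Libraries were grouped by their titles. Genes that reached 1 RPKM in 2 or more libraries were tested with limma (trend and robust) on log2(RPKM + 1), two-sided, with Benjamini-Hochberg adjustment over all tested genes at 0.05; fold changes on this scale understate the change of low genes. For limma-voom, reads recovered from RPKM (at least 10 in 2 libraries) were scaled by TMM. The labels do not say that replicate numbers pair libraries, so the main test has no block. The members and lists were chosen with earlier results of these data known. Named genes were the members, up to 4 genes per pathway list with a mean of at least 5 RPKM and groups that do not overlap (largest change first), otherwise the 2 most abundant, the 2 most abundant markers per cell type, and the 6 genes most like the members. Models were fitted in R 4.3.3 with limma 3.58.1. Tables were handled in Python 3.11.15 (numpy 2.4.6, pandas 2.3.3), intervals in scipy 1.17.1, and plots in matplotlib 3.10.9.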

Additional observations from a re-analysis of the deposited data

How the results depend on the processing

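The members past the threshold numbered 0 with all 4 libraries and under each of 10 alternatives: the 4 scalings, filters of 5 RPKM (which drops Egr3) or none, 0.1 as pseudocount, limma-voom, the replicate block and, added after the data were seen, protein-coding genes only. The genes past it numbered 0 there too. With a library left out, members past the threshold ranged from 0 to 6, all genes past it from 0 to 2129, and the members' median log2 fold change from -0.72 to 0.66. With T cell scaling the members' median was -0.72, but the median of all tested genes was -0.57 there. Signs turned for values near 0: Jun was -0.061 under median-of-ratios, -0.014 under upper-quartile, -0.69 under T cell scaling and -0.047 in limma-voom; Egr3 was -0.11 under T cell scaling; Ier2 and Atf3 were each 0.021 with mitochondrial reads left out, and Atf3 0.0033 with the pseudocount of 0.1. With a library left out, log2 fold changes ranged from -1.74 to 0.66 for Fos, -1.03 to 0.82 for Fosb, -0.72 to 0.72 for Jun, -0.68 to 0.22 for Junb, -0.17 to 0.076 for Jund, -1.44 to 0.77 for Egr1, -0.45 to 0.60 for Egr3, -0.44 to 0.44 for Ier2 and -1.35 to 1.35 for Atf3. The causes of these shifts were not tested, beyond the library each fit leaves out.

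With the replicate block, 0 members and 0 genes passed and the median was -0.05. The pairing rests on a number only: replicate 1 less replicate 2 correlated at 0.330 between treatments over 12484 genes. Depth limits Egr2 and Egr3, with at most 110 reads per library.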
